A study of Homo sapiens with 101 samples.

Results

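HRAS was knocked down with short hairpin RNAs in SW480 cells, and 6 of the 101 arrays of the series carry that knockdown. They were chosen by their sample labels alone and were compared with 6 arrays of SW480 cells carrying the empty hairpin vector and 6 carrying a non-target hairpin. SW480 is an established line from a primary human colorectal adenocarcinoma, and SW620 was derived later from a lymph node metastasis in that patient. The series profiled vector controls, cells that were not transduced and knockdowns of RAS pathway genes in both lines, on Affymetrix arrays read as log2 RMA values. No drug treatment, time point or selection step is given in the labels for these groups, and all 3 groups of SW480 cells compared here had been transduced with a vector. The labels name the hairpin of HRAS replicate 1 B3 and that of replicates 3 to 6 A1, and give no code for replicate 2. Replicates 3 and 4 carry the letter A in their names and replicates 5 and 6 the letter B. Whether the letters mark separate cultures is not given in the sources used here, so p-values measure the spread between these arrays, part of which may be technical.

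HRAS is a small membrane-bound GTPase that switches on when exchange factors load it with GTP and off when GTPase-activating proteins make it hydrolyse the GTP. In its active state it recruits RAF kinases, which start the MEK and ERK kinase cascade, and it also binds phosphatidylinositol 3-kinase and RAL exchange factors. In the colonic epithelium this signalling lies downstream of the EGF receptor family, and ERK activity is read out through feedback genes such as the dual specificity phosphatases and the Sprouty proteins.

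The HRAS transcript was lower on every knockdown array. In the empty vector cells its log2 level was 8.86, 8.16, 9.38, 9.37, 9.39 and 9.42 on replicates 1 to 6. In the non-target cells it was 9.62, 7.94, 9.18, 9.22, 9.25 and 9.42. In the knockdown cells it was 5.81, 7.20, 7.80, 7.60, 7.54 and 7.47, so that no knockdown array reached a control array of its own round. The fitted log2 change was -1.86 ± 0.20 (SE, n = 6 knockdown and 12 control arrays), which leaves 27.5% of the control level (limma, adjusted p = 1.53e-06). An exact two-sided permutation test of arrays within rounds gave p = 0.000224, the smallest that the 4455 arrangements allow. This test counts each array as a separate unit. If a letter marks a single culture, fewer arrangements are open and the smallest possible p is larger. The depth of the knockdown was uneven. The change was -3.43 with code B3, -0.85 on replicate 2, -1.59 on replicates 3 and 4 and -1.86 on replicates 5 and 6. With replicates 1 and 2 alone the change was -2.14 and did not pass the test (limma, adjusted p = 0.0509).

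**Figure D1:**
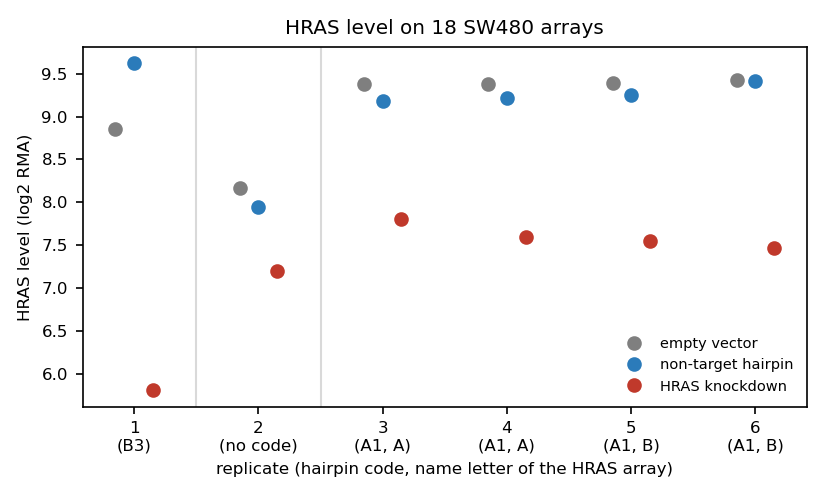
HRAS level (log2 RMA, vertical axis) on each of the 18 SW480 arrays by replicate number, with grey, blue and red points for empty vector, non-target hairpin and HRAS knockdown, and vertical lines between the 3 rounds. Each red point lies below the grey and blue points of its replicate, with the lowest level, 5.81, on replicate 1 and the smallest gap on replicate 2.

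The arrays were compared with the genes that set SW480 and SW620 apart. The mean of the 50 genes most specific to SW620 was 4.79 to 5.23 on the knockdown arrays and 4.98 to 5.27 on the vector controls, while it was 8.10 to 9.17 on the SW620 arrays of the HRAS knockdown. The mean of the genes most specific to SW480 was 7.89 to 8.92 on the knockdown arrays and 8.55 to 9.43 on the vector controls, lower on each knockdown array than on every control of its round, and 4.75 to 5.06 on the SW620 arrays of the HRAS knockdown. Colon epithelial markers had a mean level of 7.73 to 8.54 in the knockdown and 8.27 to 8.83 in the controls. Fibroblast, leukocyte and endothelial markers stayed between 4.76 and 5.74 in all 18 arrays. Knockdown replicates 3 and 4 stood apart from replicates 5 and 6. Of the 19775 genes, 388 differed by more than 1 log2 unit between the letters, against 0 to 3 in the other 5 knockdowns of SW480, and the median difference between arrays was 0.106 and 0.0962 within the letters and 0.218 to 0.256 between them. The same arrays differed in the 3′ minus 5′ signal of the control transcripts: for GAPDH it was 1.39 and 1.47 on replicates 3 and 4, 0.32 and 0.41 on replicates 6 and 5, and 0.33 to 0.49 on the controls of replicates 3 to 6. For ACTB it was 3.45 to 3.57, 1.67 to 1.88 and 1.88 to 2.68. This measure of RNA quality or labelling moved with the letters, and its part in the results was not tested. Values of both pairs of arrays are given for some of the genes below.

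With both vector controls and all 3 rounds in the model, 5843 of 19775 genes differed after HRAS knockdown, or 29.5% (limma, adjusted p under 0.05). Of these, 2163 were higher, 10.9% of all genes, and 3680 were lower, 18.6%. Large changes were mostly decreases: 16 genes rose at least 2-fold and 440 fell at least 2-fold. After a second quantile normalisation the split was 3758 higher and 2964 lower, so the share of higher calls moved from 37% to 55.9% and the balance of small changes rests on the scaling. The direction was the same in replicate 1, replicate 2, replicates 3 and 4 and replicates 5 and 6, which share no control array, for 1488 of the genes that rose and 2736 of those that fell. The calls rest on these same arrays, so agreement in sign is partly built in and is not independent support. The same holds for such counts in the gene lists below. Only EIF4E2 rose at least 2-fold in all 4 of these sets, whereas 83 genes fell at least 2-fold in all of them. All 6 knockdown arrays lay below every control array of their round for 1670 genes, 8.45% of those tested, and above them for 518 genes, 2.62%.

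TNFRSF11B and SERPINA1 had the largest mean falls. SERPINA1, which encodes the secreted protease inhibitor alpha-1-antitrypsin, ranged from 8.07 to 10.46 on the 12 control arrays with a median of 8.53. On the 6 knockdown arrays it ranged from 5.63 to 6.48 with a median of 5.88, and the 2 groups did not overlap. Its change was -2.91 ± 0.18 (SE; limma, adjusted p = 3.48e-09), with -4.10 on replicate 1, -3.61 on replicate 2, -2.40 on replicates 3 and 4 and -2.47 on replicates 5 and 6. TNFRSF11B, the secreted decoy receptor osteoprotegerin, had control values of 7.65 to 9.76 (median 7.96) and knockdown values of 3.98 to 6.59 (median 4.87). It fell by 3.24 on the log2 scale ± 0.29 (SE; limma, adjusted p = 1.54e-07), with -3.93 on replicate 1, -1.18 on replicate 2, -4.12 on replicates 3 and 4 and -3.04 on replicates 5 and 6. TNFSF10, the death ligand TRAIL that TNFRSF11B can bind, had control values of 5.18 to 7.67 and knockdown values of 3.57 to 3.93. Its change was -2.45 ± 0.21 (SE; limma, adjusted p = 1.48e-07), again with no overlap of the groups.

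The other large falls had similar sizes. MAL2, a protein of transport to the apical membrane, changed by -2.64, the keratin KRT13 by -2.38, and SCNN1A, the alpha subunit of the epithelial sodium channel, by -2.26. PTPRZ1, a receptor tyrosine phosphatase, changed by -2.62, TRIM2, a ubiquitin ligase, by -2.66, and the cytokine receptor subunit IL27RA by -2.24. GSKIP, a protein that binds GSK3 kinase, changed by -2.31 and MAML2, a Notch coactivator, by -2.26. Each of these 8 genes lay below both controls on all 6 knockdown arrays, and each passed the test in the fit over all genes (limma, largest adjusted p = 5.29e-07, for TRIM2). MAL2 changed by -3.20 on replicates 3 and 4 and -2.37 on replicates 5 and 6. TRIM2 varied most among them, from -4.44 on replicate 1 to -0.93 on replicate 2.

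The increases were smaller. EIF4E2, a cap-binding protein related to the translation factor eIF4E, had control values of 6.29 to 9.15 and knockdown values of 8.31 to 10.01. The pooled ranges overlapped, and the rounds differed in level, but all 6 knockdown arrays lay above both controls of their round, and the change was 1.44 ± 0.13 (SE; limma, adjusted p = 1.25e-07). FSCN1, the actin-bundling protein fascin, rose from a control range of 6.60 to 7.74 to 8.12 to 9.36 without overlap, by 1.32 ± 0.13 (SE; limma, adjusted p = 4.93e-07). TNC, the matrix protein tenascin C, rose by 1.44 and RIN2, a guanine exchange factor for RAB5 that binds RAS, by 1.16, both on all 6 arrays. SOX2, a stem cell transcription factor, had the largest mean rise, 1.52, but only 0.13 on replicate 1, where the empty vector array read 4.17 and the non-target array 6.85. MARCHF4, a membrane ubiquitin ligase, rose by 1.33 in the fit, with a change of 0.00 on replicate 2. TULP3, ZFAND2A, DCP2, NABP1, BRD2, TDG and TCOF1 rose by 0.98 to 1.24.

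**Figure D2:**
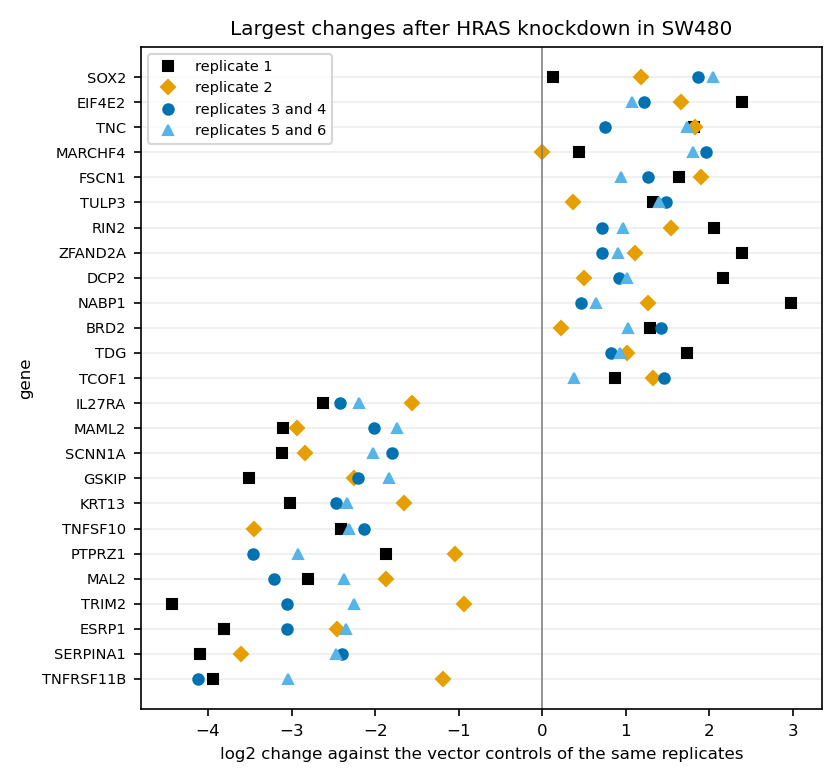
Log2 change against the vector controls (horizontal axis) of the 25 genes with the largest changes (vertical axis), with one symbol for each of the 4 array sets that share no controls. The 12 genes at the bottom lie below 0 in all 4 sets, SERPINA1 between -4.10 and -2.40, while the rises at the top are smaller and SOX2 and MARCHF4 approach 0 in one early replicate each.

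Agreement between the sets was moderate. Across the 19775 genes, which are not independent, the changes of replicates 1 and 2 correlated with r = 0.611, those of replicate 1 and replicates 3 to 6 with r = 0.516, and those of replicate 2 and replicates 3 to 6 with r = 0.293. The changes of replicates 3 and 4 and of replicates 5 and 6 correlated with r = 0.607. Of the 4157 genes called lower in replicates 3 to 6 alone, 80.2% were also lower on replicate 1 and 67.6% on replicate 2, against 48.2% and 51.1% of all genes. Of the 2552 called higher, 70.8% and 55.2% were also higher, against 51.8% and 48.9%. The difference in response between replicates 3 to 6 and replicate 1 was itself called for 3061 genes, 15.5%. Code B3 has 1 knockdown array, so this test takes its spread from the other groups and assumes that the lone array varies like them. Each code lies in rounds of its own, so hairpin code and round cannot be told apart here. The difference between replicates 3 and 4 and replicates 5 and 6, which carry the same code, was called for 7482 genes, 37.8%. Each letter has 2 knockdown arrays that are much alike. If a letter marks a single culture, this test measures the spread of repeat arrays and not that between cultures.

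Among the RAS family and its regulators the changes were scattered. Of 21 measured GTPases of the RAS subfamily, 6 fell, HRAS among them, and 1 rose, against 18.6% lower and 10.9% higher over all genes. RAP1B, a GTPase of cell adhesion, had control values of 9.47 to 11.06 and knockdown values of 8.77 to 10.10, and all 6 arrays lay below the controls of their round. It fell by 1.10 on the log2 scale (limma, adjusted p = 1.35e-07), with -1.43 on replicates 3 and 4 and -0.94 on replicates 5 and 6, and RRAS2, a close relative of the classical RAS proteins, fell by 0.58 (adjusted p = 2.51e-05). The other classical RAS genes were not analysed here. Of 17 activators, 5 fell and 3 rose: RASGRP1, an exchange factor, changed by -1.22, PPP1CB, the phosphatase subunit of the SHOC2 complex, by -1.24 (-1.75 on replicates 3 and 4 and -0.56 on replicates 5 and 6), and GRB2, the adaptor that brings SOS to receptors, by 0.21. RASGRP3, a related exchange factor, had changes of 3.25 on replicate 1 and 2.22 on replicate 2, and of -0.10 and 0.30 in the later sets. Of 9 inhibitors, RASAL2 and RASA2 rose and RASAL1 fell, and the RAS GTPase-activating protein NF1 had a change of -0.10 (limma, adjusted p = 0.343). NF1 read only 3.60 to 4.18 on the control arrays, a low level at which a fall could go unseen.

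Enzymes that attach or remove the lipid anchor of RAS proteins also moved in both directions, with 4 of 13 lower and 3 higher, against 18.6% and 10.9% of all genes. ZDHHC9, a palmitoyltransferase of HRAS, fell by 0.75 on all 6 arrays, and its partner GOLGA7 rose by 0.27. PDE6D, a carrier of farnesylated RAS, changed by -0.92 and the depalmitoylating enzyme ABHD17C by -0.90, less on replicates 5 and 6 (-0.20 and -0.30) than on replicates 3 and 4 (-1.12 and -1.25). Of 9 measured RAF, MEK and ERK kinases and their scaffolds, the scaffolds KSR2 and IQGAP1 fell and KSR1 rose. The kinases themselves had small changes that did not pass the test, -0.16 for MAP2K1, 0.12 for MAP2K2, -0.02 for MAPK3 and 0.17 for ARAF. Averaging all probe sets of a gene turned IQGAP1 to 0.14 (adjusted p = 0.358) and RASAL2 to -0.016 (adjusted p = 0.841). Of 18 other effectors, 5 fell and 3 rose. TIAM1, a RAC exchange factor that binds RAS, fell by 1.21, RASSF5 by 0.65 and the phosphatidylinositol 3-kinase regulatory subunit PIK3R1 by 0.61, each on all 6 arrays.

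Genes that report ERK activity moved in both directions. Of 28 feedback and output genes, 8 fell and 5 rose, against 18.6% lower and 10.9% higher over all genes, with a median change of -0.07 against 0.02. The growth factor GDF15 had control values of 7.33 to 9.41 and knockdown values of 5.90 to 6.75 without overlap, and changed by -1.51 ± 0.20 (SE; limma, adjusted p = 1.53e-05). SPRY1 and SPRY2, feedback inhibitors of receptor signalling, changed by -1.06 (-1.47 on replicates 3 and 4 and -0.78 on replicates 5 and 6) and -1.01, the cytokine LIF by -0.74, the transcription factor ETV1 by -1.20 and PHLDA1 by -1.44. All 8 genes that fell were lower in each of the 4 sets, while 2 of the 5 that rose, FOSL1 and EPHA2, were higher in each. Over all genes this held for 2736 of the 3680 that fell and 1488 of the 2163 that rose. FOSL1, a partner of JUN in AP-1, rose by 0.74, and PLAU, DUSP5, EPHA2 and CD44 rose by 0.19 to 0.44.

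Several of these genes differed between the single knockdown array of code B3 and the arrays of code A1. Each test of that difference assumes that the lone array varies like the other groups, and any deviation of that array or its 2 controls is shared by all genes. DUSP6, the cytoplasmic ERK phosphatase, had log2 levels of 11.34 and 10.25 in the vector controls of replicate 1 and 8.29 in the knockdown, and of 10.47 and 11.10 against 9.06 on replicate 2. On replicates 3 to 6 the knockdown arrays read 11.22 to 11.37 and the controls 11.02 to 11.31, which overlap. The change was thus -2.51 on replicate 1 and 0.12 on replicates 3 to 6, and this difference was called (2.63 ± 0.31, SE, with the spread taken from the other groups; limma, adjusted p = 2.67e-05). DUSP4, the nuclear ERK phosphatase, changed by -1.35 on replicate 1 and 0.91 on replicates 3 to 6 (difference adjusted p = 3.27e-06), and SPRY4 by -0.80 and 0.29 (adjusted p = 0.000218). PHLDA1 changed by -3.70 and -0.75 and GDF15 by -3.06 and -1.08, and both differences were called. In all, the response was higher in replicates 3 to 6 than on the 1 array of replicate 1 for 11 of the 28 genes and lower for 0 (limma; 12 and 0 at an unadjusted p under 0.05), against 8.67% and 6.81% of all genes. The median change of the 28 genes was -0.48 on replicate 1, 0.07 on replicates 3 and 4 and -0.02 on replicates 5 and 6. On replicate 2, which has no code and the smallest fall of HRAS, it was -0.26. Hairpin code and round cannot be told apart in these differences. HRAS itself was lowest on replicate 1, and the part of its depth in these differences was not tested.

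**Figure D3:**
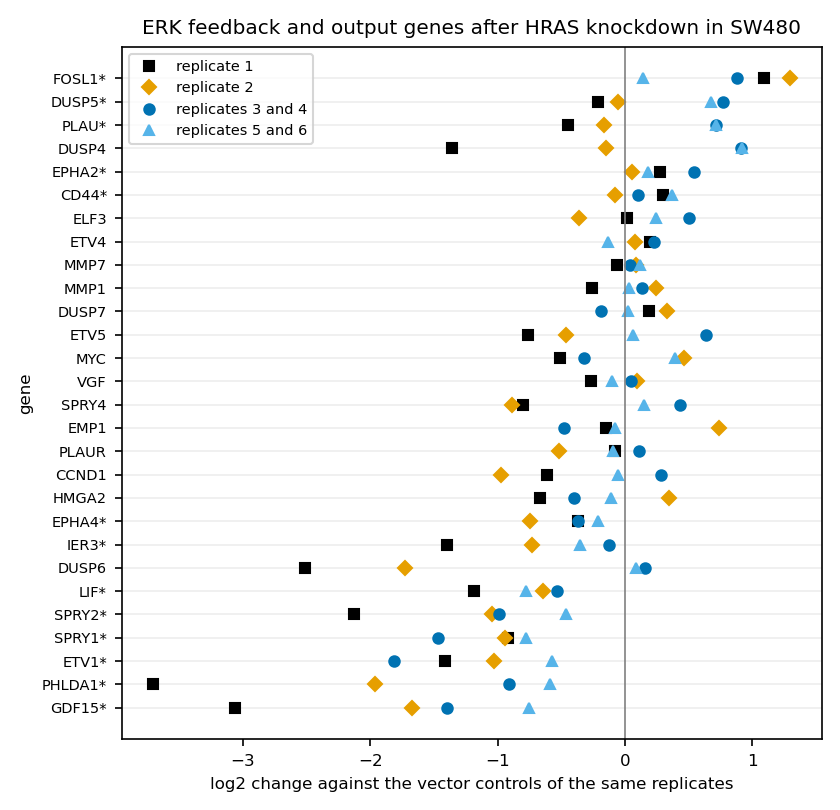
Log2 change against the vector controls (horizontal axis) of 28 ERK feedback and output genes (vertical axis) in the 4 array sets, with an asterisk at genes that passed the test over all arrays. Black squares (replicate 1) lie far to the left for PHLDA1, GDF15, DUSP6 and SPRY2, while the blue symbols of replicates 3 to 6 lie near or above 0 for DUSP6, DUSP4 and SPRY4.

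Of 14 upstream ligands and receptors of the EGF family, 5 fell and 1 rose, against 18.6% lower and 10.9% higher over all genes. The count that fell was 3 under 6 alternatives, among them the non-target hairpin alone and replicates 3 to 6 alone. TGFA, a ligand of the EGF receptor, had control values of 7.30 to 9.02 and knockdown values of 5.33 to 8.01, below both controls of the round on all 6 arrays. It changed by -1.40 ± 0.16 (SE; limma, adjusted p = 2.55e-06), and the receptor ERBB3 by -1.14, the ligand BTC by -0.71 and ERBB2 by -0.46. EGFR had a change of -0.15 that did not pass (adjusted p = 0.517), and the sheddase ADAM17 rose by 0.38. Of 23 immediate early genes 8 rose (2 to 5 under 6 alternatives), among them KLF2 (0.91), ATF3 (0.84), FOSB (0.71), JUN (0.68) and KLF6 (0.57), and 4 fell. FOS, the founding member of AP-1, fell by 0.96 on all 6 arrays (limma, adjusted p = 1.29e-06), from control values of 8.48 to 9.89 to 7.44 to 8.46.

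Epithelial junction and splicing genes were the group with the highest share of decreases among those described here. Of 27 measured, 17 fell and 0 rose (limma; at an unadjusted p under 0.05, 19 were lower and 2 higher), against 18.6% and 10.9% of all genes, and the median change was -0.41. The medians in the 4 sets were -0.53, -0.45, -0.33 and -0.52. Of the 17, 16 were lower in every set, against 2736 of the 3680 that fell over all genes. Without a term for round 7 fell, and with replicates 1 and 2 alone 10. ESRP1, the splicing factor that maintains epithelial isoforms, had control values of 6.59 to 8.62 and knockdown values of 3.64 to 6.23 without overlap. It changed by -2.84 ± 0.20 (SE; limma, adjusted p = 1.36e-08), from -3.81 on replicate 1 to -2.35 on replicates 5 and 6. CDH1, the adherens junction protein E-cadherin, changed by -1.48 (-1.62 on replicates 3 and 4 and -0.80 on replicates 5 and 6) and lay below the controls of its round on all 6 arrays, although its non-target array of replicate 1 read 4.92 beside 7.60 for the empty vector and 4.56 for the knockdown. The claudins CLDN1 and CLDN7 changed by -1.32 and -1.37, the cell adhesion protein EPCAM by -1.10, the tight junction protein MARVELD3 by -1.10 and the transcription factor GRHL1 by -1.71 (-2.35 on replicates 3 and 4 and -1.29 on replicates 5 and 6). OVOL2, a repressor of mesenchymal genes, changed by -0.82, and the plakophilin PKP3 and plakoglobin JUP by -0.90 and -0.85. CLDN4, GRHL2, RAB25 and PRSS8 had changes of 0.02 to 0.18 that did not pass. CLDN4 had a control median of 8.09. Those of GRHL2, RAB25 and PRSS8 were only 4.29, 4.19 and 4.30, low levels at which a fall could go unseen.

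**Figure D4:**
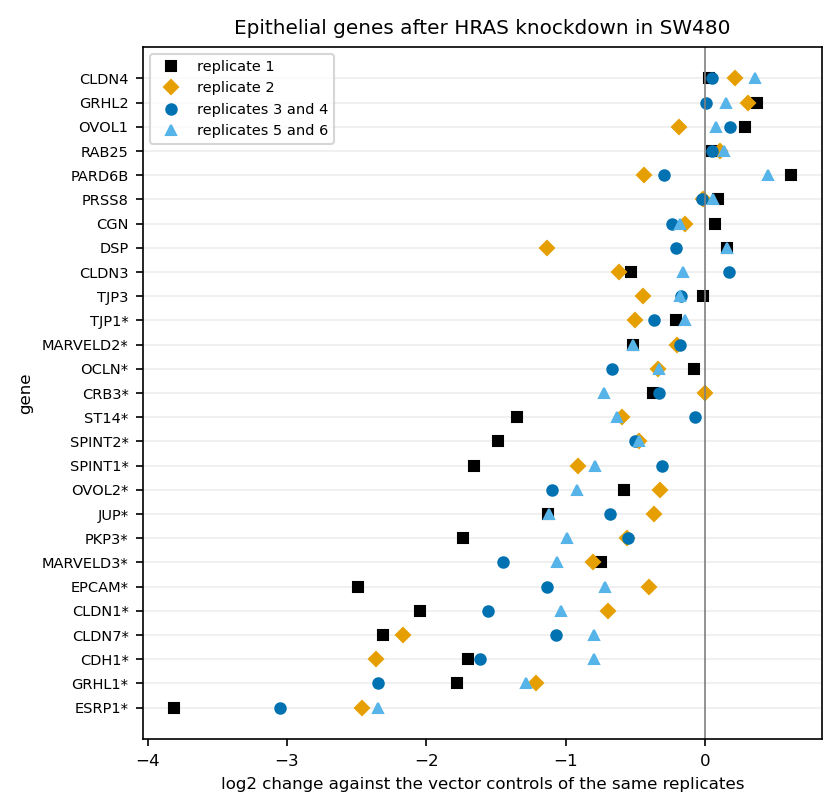
Log2 change against the vector controls (horizontal axis) of 27 epithelial junction and splicing genes (vertical axis) in the 4 array sets, with an asterisk at genes that passed the test over all arrays. The 17 genes with an asterisk lie left of 0 in nearly every set, down to -3.81 for ESRP1, and CLDN4, GRHL2 and RAB25 lie at or right of 0.

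Mesenchymal genes moved in both directions. Of 19, 3 rose and 6 fell, against 10.9% and 18.6% of all genes, and the share that rose, 15.8%, lay near that background. ZEB1, a repressor of E-cadherin, rose on all 6 arrays by 0.97 ± 0.09 (SE; limma, adjusted p = 2.5e-07), with 1.61, 0.78, 0.94 and 0.76 in the 4 sets. SNAI2 rose by 0.70 but changed by -0.34 on replicates 3 and 4, and TNC rose by 1.44. The matrix protein FN1, fibronectin, had control values of 8.40 to 9.46 and knockdown values of 6.88 to 8.01 without overlap, and changed by -1.50. Smooth muscle actin ACTA2 changed by -1.68, TGFBI by -1.15 and TWIST2 by -0.71, while vimentin (VIM, 0.12), SNAI1 (0.08), CDH2 (0.11) and ZEB2 (-0.03) did not pass. Of 18 ion channel and transporter genes, SCNN1A, the chloride channel ANO1, the sodium pump subunit ATP1B1 and KCNN4 fell and 0 rose (limma; 5 and 2 at an unadjusted p under 0.05). ANO1 changed by -3.11 on replicate 1 and -0.45 on replicates 3 to 6, and KCNN4 lost its call in 14 of the 18 fits that left out 1 array.

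More interferon-stimulated genes fell than rose, and the share that rose, 5.88%, lay below that of all genes. These genes are switched on by the ISGF3 complex, which binds promoter elements built on copies of the letters GAAA a short gap apart. Of 34 measured, 14 fell and 2 rose, against 18.6% lower and 10.9% higher over all genes, with a median of -0.15. Of the 14, 12 were lower in all 4 sets, against 2736 of the 3680 that fell over all genes. The search was for 2 copies of GAAA separated by any 2 bases, on either strand, with overlapping matches counted. The promoters of the 3 most lowered members with a match, and of ISG15, which was not called, are shown to set the element beside the response. They are the 250 bases before the RefSeq transcript start in GRCh38.p14, on the gene's strand, with matches in capitals (a match on the other strand reads as copies of TTTC), and lie at chr2:162318685-162318934 (minus strand) for IFIH1, chr14:94110486-94110735 (plus) for IFI27, chr15:88638766-88639015 (plus) for ISG20 and chr1:1013247-1013496 (plus) for ISG15.
IFIH1: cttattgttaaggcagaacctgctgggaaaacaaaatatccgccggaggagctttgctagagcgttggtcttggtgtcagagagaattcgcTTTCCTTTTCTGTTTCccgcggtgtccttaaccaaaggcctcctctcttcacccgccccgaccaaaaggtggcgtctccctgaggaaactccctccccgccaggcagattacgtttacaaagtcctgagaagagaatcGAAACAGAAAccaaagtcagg
IFI27: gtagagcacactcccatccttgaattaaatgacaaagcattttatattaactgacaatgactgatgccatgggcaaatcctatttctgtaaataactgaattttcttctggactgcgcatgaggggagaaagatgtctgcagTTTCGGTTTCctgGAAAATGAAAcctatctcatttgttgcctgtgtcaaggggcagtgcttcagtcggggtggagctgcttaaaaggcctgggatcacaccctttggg
ISG20: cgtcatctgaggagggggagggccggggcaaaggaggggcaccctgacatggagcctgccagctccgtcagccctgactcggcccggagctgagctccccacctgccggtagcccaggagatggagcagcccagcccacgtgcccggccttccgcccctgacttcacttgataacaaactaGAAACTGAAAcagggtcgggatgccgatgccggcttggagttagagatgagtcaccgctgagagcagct
ISG15: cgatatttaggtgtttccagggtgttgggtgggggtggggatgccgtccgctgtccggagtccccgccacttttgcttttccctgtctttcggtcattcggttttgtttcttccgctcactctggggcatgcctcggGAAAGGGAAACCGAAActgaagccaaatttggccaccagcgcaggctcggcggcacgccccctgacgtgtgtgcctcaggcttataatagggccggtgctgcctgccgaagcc
A match occurred in 3.07% of 27305 promoters of the same length, in 8 of the 13 fallen members with a promoter entry (61.5%) and in 8 of the 14 other members (57.1%).

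IFIH1, the cytosolic RNA sensor MDA5, showed the largest fall of the group. It had log2 levels of 4.87 to 5.17 in the controls of replicates 1 and 2 and 7.42 to 7.77 in those of replicates 3 to 6. The knockdown arrays read 3.88, 4.45, 5.10, 5.06, 5.96 and 5.99 on replicates 1 to 6, each below its controls. The change was -1.62 ± 0.18 (SE; limma, adjusted p = 2.44e-06). The exonuclease ISG20 changed by -1.20, OAS1, which makes the second messenger of RNase L, by -0.98, and the translation inhibitor IFIT3 by -1.18, with -2.31 on replicates 3 and 4 and -0.91 on replicates 5 and 6. ISG15, a ubiquitin-like protein, changed by -0.11 (adjusted p = 0.44), IFIT1 by -0.16 and MX1 by 0.11, and IRF7 and IRF1 rose by 0.31 and 0.22. With replicates 1 and 2 alone, where 8.19% of all genes were called, 4 members fell, and 6 fell without a term for round. IFI27 changed by -1.23, with 0.29 on replicate 2.

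Of 15 antigen presentation genes, 7 fell and 1 rose, against 18.6% and 10.9% of all genes. The count that fell was 4 with the non-target hairpin alone, with averaged pairs and on replicates 1, 2, 5 and 6, 1 on replicates 1 and 2, and 0 without a term for round. The immunoproteasome subunits PSMB9 and PSMB8 changed by -0.84 and -0.70, and NLRC5, the activator of class I genes, by -0.43. B2M, the light chain of class I molecules, changed by -1.50 on replicates 3 and 4 but by -0.19 on replicates 5 and 6, 0.14 on replicate 1 and -0.17 on replicate 2, a difference between the letters that was called (-1.32 ± 0.05, SE; limma, adjusted p = 5.36e-12). The error of this test comes from the spread of arrays within letters, which may be repeats of the same culture. Replicates 3 and 4 are the arrays with the high 3′ minus 5′ signal.

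Among cell cycle regulators 5 of 14 CDK inhibitors and D cyclins fell and 1 rose, against 18.6% and 10.9% of all genes, and 2 or 3 fell under 7 alternatives. Cyclin D2, CCND2, changed by -1.30 and the pocket protein RBL2 by -1.25, and CDK6 rose by 0.95. CCND1, the D cyclin usually placed downstream of ERK, had -0.61 and -0.97 on replicates 1 and 2 and 0.28 and -0.05 in the later sets. Genes of DNA replication (7 of 26 rose, 3 fell) and of mitosis (4 of 29 rose, 7 fell) had median changes of 0.00 and -0.06, and the share of mitosis genes that fell (24.1%) or rose (13.8%) and of replication genes that fell (11.5%) lay near that of all genes. Of 20 stem cell and Wnt target genes, 8 fell and 3 rose. APCDD1 and ZNRF3, both Wnt inhibitors, changed by -1.26 and -0.87, and ASCL2, a transcription factor of intestinal stem cells, by -1.26. Without HRAS replicate 4, 5 members of this list fell, and 3 to 5 under 6 other alternatives.

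The metabolic groups differed between the array sets. Of 17 sterol synthesis genes 8 fell and 0 rose, against 18.6% and 10.9% of all genes (limma; 10 and 0 at an unadjusted p under 0.05), but the set medians were -0.14 on replicate 1, 0.65 on replicate 2 and -0.51 in both later sets, and 0 of them fell with replicates 1 and 2 alone (limma; 0 also at an unadjusted p under 0.05) and 14 with replicates 3 to 6 alone. MSMO1, a demethylase of the pathway, changed by -1.22 and the regulator INSIG1 by -1.11. Of 23 oxidative phosphorylation genes 11 fell and 0 rose (limma; 14 and 0 at an unadjusted p under 0.05), by at most 0.39, and 0 fell with replicates 1 and 2 alone (limma; 1 at an unadjusted p under 0.05). With the empty vector alone as control 3 sterol synthesis and 4 oxidative phosphorylation genes fell, and with averaged pairs 2 of each. Amino acid response genes (9 of 26 fell, or 1 to 5 under 4 alternatives, and 5 rose), hypoxia and glycolysis genes (7 of 23 fell, 3 rose), ER chaperones (4 of 19 fell, 1 rose) and ribosomal proteins (6 of 16 fell and 0 rose in limma, 8 and 0 at an unadjusted p under 0.05, by at most 0.25) had medians between -0.11 and 0.01. Of 25 death receptor and BCL2 family genes, 7 fell and 6 rose, and of 14 serpins 4 fell and 2 rose, among them the collagen chaperone SERPINH1 (0.93) and the tumour suppressor SERPINB5 (-1.40). Of 20 NF-kB and chemokine genes 5 fell and 2 rose, and of 20 colon differentiation genes 2 fell and 2 rose, of which CEACAM5 lost its call in 12 of the 18 fits that left out 1 array.

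Among genes of RNA interference, which the hairpins use, 6 of 14 fell and 4 rose, against 18.6% and 10.9% of all genes. DICER1, which cuts hairpins into small RNAs, changed by -0.79 (limma, adjusted p = 9.46e-06), and AGO2, which carries them, by 0.31. Of the other cell type markers, 1 of 9 fibroblast and 2 of 7 endothelial markers rose and 0 fell in limma, by at most 0.31 (4 of each list higher and 0 lower at an unadjusted p under 0.05), and 2 of 8 leukocyte markers fell. THY1, the fibroblast marker that rose, lost its call in 15 of the 18 fits that left out 1 array. Of 10 colon epithelial markers 5 fell and 2 rose, and CDH1 and EPCAM stand in this list and among the epithelial genes.

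The response was set against 30 arrays of the other 5 knockdowns in SW480, CDK5, MAP2K1, MAP2K2, MAPK3 and NGFR, without using the vector controls. Of these arrays, 6 (replicate 1 of MAP2K1, MAP2K2 and MAPK3 and replicates 3, 4 and 5 of MAPK3) had a mean of the SW620 genes at least 0.5 above every vector control, up to 8.03 on MAP2K2 replicate 1. HRAS knockdown differed from the others in 7072 genes, 35.8%, of which 3055 were higher and 4017 lower. Without those 6 arrays it was 7524. HRAS was lower by 1.80 than in the other knockdowns. The lowest genes relative to them were TNFRSF11B (-2.65), ESRP1 (-2.74), DEFA5 (-2.63) and DACH1 (-2.63), and the highest included NABP1 (1.24), UCA1 (1.24) and IL1RAPL1 (1.19). The mean level of DEFA5 was 5.56 in HRAS knockdown and 8.19 in the other knockdowns, and against the vector controls it changed by 0.57, which did not pass (limma, adjusted p = 0.116). On HRAS replicates 3 to 6 it was 5.22 to 6.34, above the controls of that round. Without the 6 arrays TNFRSF11B stood at -2.96, ESRP1 at -2.63, DEFA5 at -2.48 and DACH1 at -2.33. The differences of TNC (-0.03 ± 0.29, adjusted p = 0.943) and RIN2 (0.59 ± 0.30, adjusted p = 0.123) from the other knockdowns did not pass the test. EIF4E2 was higher than in the other knockdowns by 0.54 (limma, adjusted p = 1.83e-06), against 1.44 over the vector controls. TDG was higher by 0.24, which did not pass (adjusted p = 0.0787), and by 0.36 without the 6 arrays, which did (adjusted p = 0.000989). Without them CDK6 was higher by 0.18, which did not pass (adjusted p = 0.269). Of the 27 epithelial genes 16 were lower than in the other knockdowns and 0 higher (limma; 18 and 1 at an unadjusted p under 0.05), against 20.3% lower among all genes, and of the 34 interferon genes 13 were lower and 3 higher.

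In SW620, on 6 arrays with their own vector controls, the change of HRAS was -0.74. The difference between the lines, -1.13 ± 0.26 (SE), was called (limma, adjusted p = 0.00145), and the part of the shallower knockdown of SW620 in other differences was not tested. In all 5885 genes responded differently, 29.8%. HRAS knockdown was set against the other knockdowns in SW480 only. Whether its changes in SW620 are shared with the other knockdowns of that line was not tested. SERPINA1 changed by -2.93 in SW620 and ESRP1 by -2.67, with differences between the lines of 0.02 ± 0.32 and -0.17 ± 0.33 (SE) that did not pass (adjusted p = 0.965 and 0.728). SCNN1A (-2.02 in SW620), TGFA (-1.38), CDH1 (-2.13) and GDF15 (-1.74) had differences of -0.24 ± 0.27, -0.02 ± 0.19, 0.64 ± 0.28 and 0.23 ± 0.23 that did not pass either. TNFRSF11B had a change of 1.10 in SW620 and FN1 of 2.59, opposite in sign to SW480, and both differences were called (-4.34 ± 0.34 and -4.09 ± 0.31). THBS1, the matrix protein thrombospondin 1, changed by 4.11 in SW620 and by -0.12 in SW480. MAL2 and KRT13 had changes of -0.12 and -0.04 in SW620, and FSCN1 of -0.08. In the opposite sense, IGFBP1, LEMD1, TUBB2B and the stress gene DDIT4 had changes between -3.66 and -3.17 in SW620 and between -0.77 and 0.04 in SW480. The response of DNA replication genes was lower in SW480 than in SW620 for 24 of 26 and that of mitosis genes for 27 of 29, with 0 higher in both lists (limma, and also at an unadjusted p under 0.05), against 16.6% lower among all genes. That of amino acid response genes was higher in SW480 for 22 of 26, against 13.2% of all genes. The median differences for replication, mitosis and amino acid response genes were -0.92, -0.97 and 0.72. Their median changes in SW480 were 0.00, -0.06 and -0.11, so the differences lay mostly in the SW620 response.

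**Figure D5:**
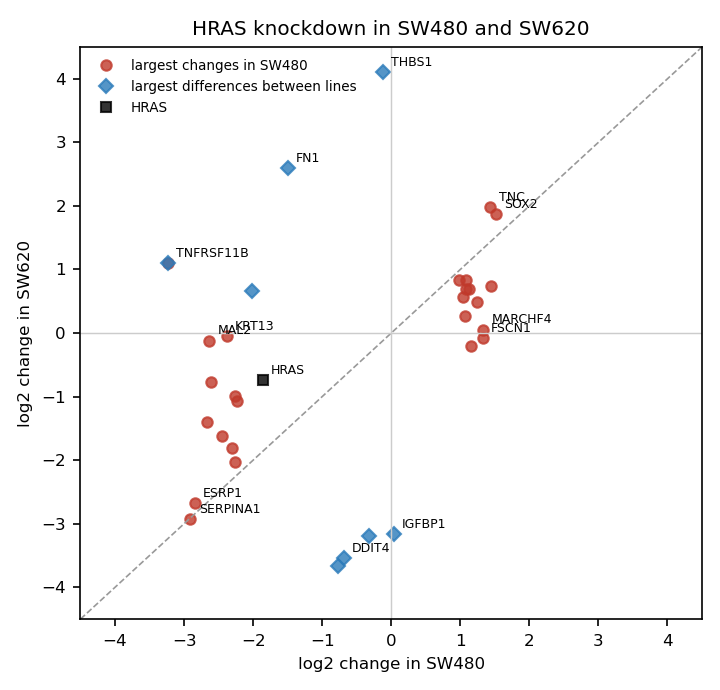
Log2 change after HRAS knockdown in SW480 (horizontal axis) and SW620 (vertical axis), for the 25 genes with the largest changes in SW480 (red), the 8 with the largest differences between the lines (blue) and HRAS (black), with a dashed line of equal change. SERPINA1 and ESRP1 lie close to the line, TNFRSF11B and FN1 lie at opposite signs, and MAL2, KRT13 and FSCN1 lie near 0 on the SW620 axis.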

How the data were processed

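RNA of 18 SW480 arrays was analysed: 6 of HRAS knockdown, 6 of empty vector and 6 of non-target hairpin. The deposited values are log2 intensities made with RMA, per the submitters' processing notes; no version is given in the sources used here. RMA normalises arrays together and hides detection, so no signal over background is known and the number of arrays limits the precision. Of 54675 probe sets, 41097 name 1 gene, 1801 several and 11777 none; the brightest probe set stood for each of 19775 genes, with no filter on low values. Changes were fitted with limma 3.58.1 in R 4.3.3 (lmFit, eBayes with trend and robust) with group and round as terms, p-values adjusted by Benjamini-Hochberg over all genes, and a threshold of 0.05. Differences between codes, letters, lines and knockdowns were contrasts of the same kind. The scripts were tested on simulated data. Promoters are the 250 bases upstream in the RefSeq table. Named genes were the 12 largest called rises and the 12 largest called falls whose sign agreed over 3 rounds, the 6 each way with the largest smallest change, up to 4 members of each list with the smallest p, and the 4 largest each way in each difference; others were named from the lists after their values were seen. The members and lists were chosen with earlier results of these data known. Alternatives covered the controls, rounds, replicates, normalisation, probe sets and left-out arrays.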

Additional observations from a re-analysis of the deposited data

Results flagged for a closer look

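One array stood apart from the other 5 in its change for 7 of the genes with the largest changes. No chance rate is given, because these genes were picked for their changes on the same arrays. Replicates 1 and 2 are also the only knockdown arrays of their rounds, and arrays within a letter are much alike. On replicate 1 the change of ZFAND2A was 2.39, DCP2 2.16, NABP1 2.98, TDG 1.74 and GSKIP -3.51, each beyond the other arrays. On replicate 2 the change of TULP3 was 0.367 and that of TNFSF10 -3.44.

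The response differed between replicates 3 to 6 and replicate 1, by a test of the difference that assumes that the 1 knockdown array of replicate 1 varies like the other groups, most for EHF (3.53), ASNS (3.51), FGF19 (3.25) and IGFBP3 (3.09), and in the other direction for RASGRP3 (-3.15), TSPAN8 (-3.12), NMRAL2P (-2.94) and BHLHE41 (-2.92). Between replicates 3 and 4 and replicates 5 and 6 it differed most for PTPRO (2.05), TRIM38 (1.59), ACTN4 (1.58) and RABGEF1P1 (1.51), and for ZNF670 (-2.35), KLHL23 (-2.31), HHEX (-2.24) and ZBTB6 (-2.22).

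Between SW480 and SW620 it differed most for IGFBP1 (3.2), LEMD1 (2.89), TUBB2B (2.88) and DDIT4 (2.85), and for TNFRSF11B (-4.34), THBS1 (-4.22), FN1 (-4.09) and SRPX (-2.68). HRAS itself differed by -1.13.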

How the results depend on the processing

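The array number, the uneven knockdown and the split of replicates 3 and 4 from 5 and 6 limit these results. Against 5843 genes in the main fit, HRAS knockdown changed 914 without a term for round, 3779 with the empty vector alone and 3660 with the non-target hairpin alone. With arrays averaged in pairs by letter it changed 3006, on replicates 1 and 2 1619, and on replicates 1, 2, 5 and 6 3447. These settings use fewer arrays, average arrays that are much alike or leave out the term for round. The cause of the lower counts was not tested. The HRAS change was -2.14 (adjusted p = 0.0509) on replicates 1 and 2. Leaving out single arrays gave 4940 to 6442 genes and an HRAS change of -2.07 to -1.55. The difference between codes was called for 1079 genes with the non-target hairpin alone and 1154 with averaged pairs (2389 to 4249 without single arrays), that between letters for 6248 to 7841, and that between lines for 8954 on replicates 3 to 6. With all probe sets averaged IQGAP1 was 0.14, DNAJC3 0.14, ASPM 0.23 and RASAL2 -0.016, and on replicates 1 and 2 INSIG1 was 0.14, CXCL1 0.023 and CHGA -0.0064; the cause was not tested. The replicate block called 5179 genes and 5130 of the same genes in the same direction, 6677 against the other knockdowns and 5217 between lines. It changed the call of KCNN4, CEACAM5 and THY1 and of no other of the 139 named changes. Same-numbered arrays of replicates 3 to 6 correlated between groups with r of -0.147 to 0.125. No pairing by number was seen, but these values cannot exclude a weak one. Of the 139 named changes, 38 kept their direction and call in all 33 settings. The sizes of some of these moved widely over the settings. SCNN1A ranged from -2.97 to -0.62, SERPINA1 from -3.85 to -1.47, ACTA2 from -2.01 to -0.53 and GDF15 from -2.36 to -0.53. ESRP1 ranged from -3.14 to -2.57 and KRT13 from -2.53 to -2.25.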
